A study of Mus musculus with 3 samples.

Results

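The lines along which Polycomb-marked chromatin meets transcribed chromatin were examined in mouse embryonic stem cells (mESCs) of the male line F123, a hybrid F1 of S129/Jae and Cast. Its members were all regions called as enriched on the 19 autosomes for H3K27me3 (15780 regions) and for RNA polymerase II phosphorylated at serine 7 of its C-terminal domain (Pol2-S7p, 20832 regions). These are 36612 of the 68884 regions of the series, which also holds Pol2-S5p, the form phosphorylated at serine 5. Each mark was measured by ChIP-seq in 1 library from untreated cells of the same line, so no value has a replicate, and the marks also differ in their antibodies, from rabbit for H3K27me3 and a rat monoclonal for Pol2-S7p. Cells were grown on feeder fibroblasts with LIF and then passaged without feeders on gelatin with more LIF. The reads of both parental genomes and of all cells were called together, so overlap of both marks on the same allele or in the same cell and presence on different alleles or cells cannot be told apart. Brackets after a share hold its 95% Clopper-Pearson (exact) interval, which takes in counting error and nothing else, and positions are in mm10 counted from 1.

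H3K27me3 is the trimethylation of lysine 27 of histone H3 that Polycomb repressive complex 2 lays down. It often spreads over broad domains that hold silent developmental genes, and in mESCs it is also known at promoters that carry paused or poised polymerase. The C-terminal domain of the largest polymerase subunit is phosphorylated at serine 5 and serine 7 near gene starts by the kinase of the general factor TFIIH, and the serine 7 form is also found along the bodies of transcribed genes. Where a Polycomb domain ends next to a transcribed gene, the edge may lie at the start of that gene, past its end, or within its body.

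A wide border was defined as a place where an H3K27me3 region and a Pol2-S7p region, each at least 10 kb wide, either overlapped with each extending past the other on one side, or faced each other across a gap of at most 5 kb. Sequences at 6 such borders illustrate the kinds of place described here. The first group holds the bases just upstream of the annotated start of genes whose start lay at a border: Lin28a and Mapk13, where both marks reached over the start, Kit, where H3K27me3 reached further into the gene, and Rpl38, where a gap separated the marks. The other group holds the middle of the border itself, in the gap inside Prkar1b and in the overlap in which Sulf2 starts. Capitals mark CpG dinucleotides, the promoter stretches follow the strand of the gene, and all sequences are from RefSeq, GRCm38.p6.
Lin28a upstream stretch, 6 CpG, chr4:134018842-134019066, - strand: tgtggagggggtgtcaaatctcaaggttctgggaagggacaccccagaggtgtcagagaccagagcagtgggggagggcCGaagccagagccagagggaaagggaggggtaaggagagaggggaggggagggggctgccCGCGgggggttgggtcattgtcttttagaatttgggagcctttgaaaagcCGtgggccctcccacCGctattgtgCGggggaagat
Mapk13 upstream stretch, 22 CpG, chr17:28769067-28769296, + strand: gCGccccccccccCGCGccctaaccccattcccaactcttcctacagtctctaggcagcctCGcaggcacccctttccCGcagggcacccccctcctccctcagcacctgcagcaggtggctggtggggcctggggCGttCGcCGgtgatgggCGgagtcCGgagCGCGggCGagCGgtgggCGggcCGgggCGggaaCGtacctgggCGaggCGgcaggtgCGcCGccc
Kit upstream stretch, 10 CpG, chr5:75574737-75574915, + strand: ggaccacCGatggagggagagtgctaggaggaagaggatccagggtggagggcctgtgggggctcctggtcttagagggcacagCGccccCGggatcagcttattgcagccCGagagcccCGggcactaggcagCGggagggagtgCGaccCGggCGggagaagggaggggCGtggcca
Rpl38 upstream stretch, 2 CpG, chr11:114668330-114668523, + strand: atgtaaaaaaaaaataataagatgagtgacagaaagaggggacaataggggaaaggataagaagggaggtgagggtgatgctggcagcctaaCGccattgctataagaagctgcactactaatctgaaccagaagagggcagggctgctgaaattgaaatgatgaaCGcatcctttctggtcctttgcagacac
Prkar1b gap, 4 CpG, chr5:139143050-139143349, + strand: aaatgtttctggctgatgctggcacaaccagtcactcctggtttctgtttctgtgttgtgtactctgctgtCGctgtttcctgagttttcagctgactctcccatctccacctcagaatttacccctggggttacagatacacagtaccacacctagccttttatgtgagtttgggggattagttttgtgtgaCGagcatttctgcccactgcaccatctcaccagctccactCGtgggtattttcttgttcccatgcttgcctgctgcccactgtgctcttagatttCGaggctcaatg
Sulf2 overlap, 2 CpG, chr2:166179750-166180049, + strand: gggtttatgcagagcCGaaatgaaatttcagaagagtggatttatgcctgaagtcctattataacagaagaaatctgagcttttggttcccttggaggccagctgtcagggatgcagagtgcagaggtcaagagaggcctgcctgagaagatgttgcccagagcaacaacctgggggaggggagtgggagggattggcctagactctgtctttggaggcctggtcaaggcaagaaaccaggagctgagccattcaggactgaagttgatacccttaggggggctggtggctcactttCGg

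The Mapk13 stretch was dense in CpG, while Rpl38 and the middle of the Sulf2 overlap held few. Counted in the same way over the 300 bases that run from 250 before to 50 after each annotated start, the median was 17 CpG for the 1215 coding genes that start at wide borders and 12 for all 20807 autosomal coding genes. Genes transcribed from the border into the Pol2-S7p region had a median of 19 CpG, with quartiles of 10 and 27, and genes transcribed into the H3K27me3 region had a median of 13, with quartiles of 5 and 22.

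The regions of both marks took up similar lengths of the autosomes and shared part of them. H3K27me3 covered 227 Mb (9.47% of the assembled autosomes) and Pol2-S7p 250 Mb (10.5%), and 44.0 Mb lay in both, which is 19.4% of the H3K27me3 length and 17.6% of the Pol2-S7p length. Of the H3K27me3 regions, 46.6% (45.8 to 47.4) overlapped Pol2-S7p by at least 1 bp, and of the Pol2-S7p regions 41.1% (40.4 to 41.7) overlapped H3K27me3. The share rose with width for H3K27me3, from 25.8% of regions under 1 kb to 83.3% of those of 50 kb or more. For Pol2-S7p it was 40.2% under 1 kb, lowest at 33.3% between 2 and 10 kb, and 63.2% from 50 kb on. Wider regions also have more room to overlap.

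Direct abutting was rare. Of 9619 pairs of neighbouring regions that faced each other without overlap, 26 (0.270%, 0.177 to 0.396) met with no base between them, 226 had a gap of at most 1 kb and 1102 (11.5%) a gap of at most 5 kb. The median gap was 35.4 kb, with quartiles of 12.2 and 97.6 kb. Overlap was common by comparison, with 9331 overlapping pairs. In 4654 of these (49.9%) the Pol2-S7p region lay within the H3K27me3 region, in 1657 (17.8%) the H3K27me3 region lay within the Pol2-S7p region, and in 280 both had the same start and end. The remaining 2740 pairs (29.4%, 28.4 to 30.3) were staggered, with each region extending past the other on one side. The staggered overlaps had a median length of 2.60 kb and together held 16.6 Mb, 37.6% of the shared length, while the nested Pol2-S7p regions had a median of 1.40 kb.

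H3K27me3 edges lay closer to Pol2-S7p than the autosomes as a whole did. The median distance from an H3K27me3 edge to the nearest Pol2-S7p region was 10.0 kb (quartiles 0.200 and 50.8 kb), and the same distance measured from every 200 bp point of the autosomes was 45.0 kb. For Pol2-S7p edges the median distance to H3K27me3 was 16.4 kb, with 54.6 kb for all points. Among the 31560 H3K27me3 edges, 17.6% lay under a Pol2-S7p region and 43.0% were within 5 kb of one or under it, and 18.3% of all points were. At the edge of H3K27me3 regions of at least 10 kb, by contrast, Pol2-S7p cover differed little between the last kb outside and the first inside. It was lower deep inside. Pol2-S7p covered 27.9% of the bases between 19 and 20 kb outside such an edge, 23.3% of the last kb outside, 27.2% of the first kb inside and 17.0% of the bases between 19 and 20 kb inside. Around the edges of wide Pol2-S7p regions H3K27me3 covered, at the same places, 24.8%, 23.8%, 26.6% and 14.2%. Of these 4 places, cover by the other mark was lowest deep inside the region for both marks. Only regions wide enough enter that place, with 5576 of 8680 H3K27me3 edges and 7418 of 11042 Pol2-S7p edges.

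**Figure D1:**
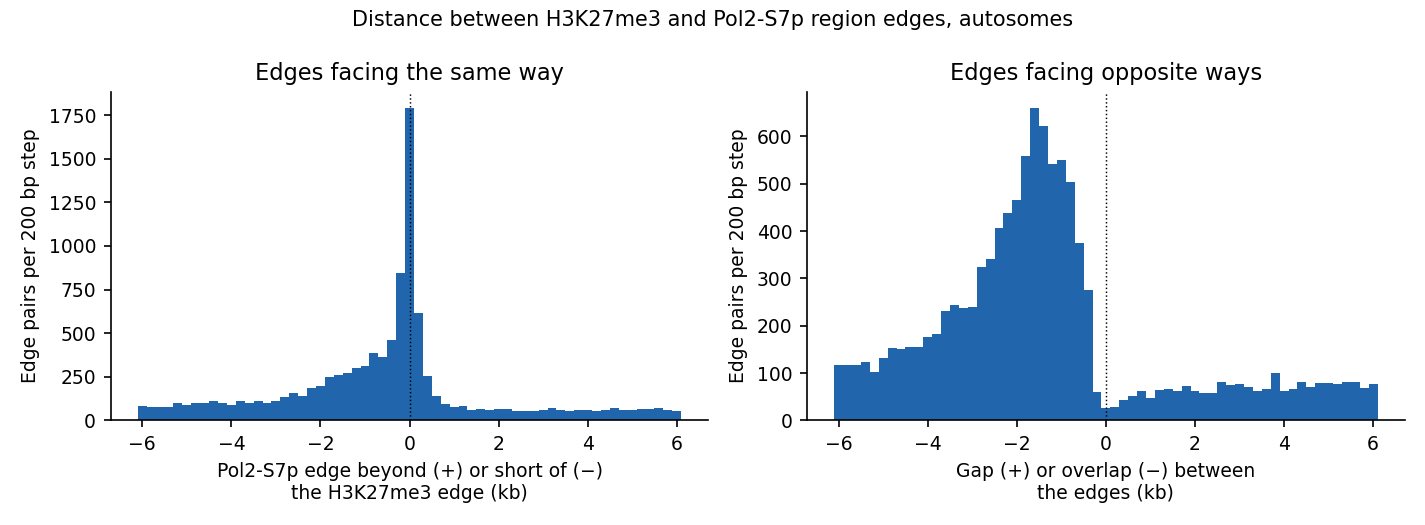
Number of edge pairs per 200 bp step against the distance between an H3K27me3 edge and a Pol2-S7p edge in kb, for edges that face the same way (left) and opposite ways (right), on a linear scale. The left panel peaks at 0, with 1793 edges in the same step, and the right panel is lowest at 0, with 26 abutting pairs. The right panel peaks on the side of overlap at 661 pairs of edges 1600 bp apart. That side includes narrow regions of both marks lying over each other, and for nested regions the distance is not the shared length.

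Edges that faced the same way coincided far more often than edges that faced each other. At 1793 places, 5.68% of the H3K27me3 edges, both marks ended in the same 200 bp step and in the same direction, and the counts in the steps on each side were 843, with Pol2-S7p ending 200 bp short, and 618, with Pol2-S7p ending 200 bp beyond. Of the 1793 edges, 842 (47.0%, 44.6 to 49.3) were also an edge of a Pol2-S5p region facing the same way, and 4.69% of the H3K27me3 edges elsewhere were. The 1793 were picked for lying at a polymerase edge, and the same share over all Pol2-S7p edges was not computed. This contrast therefore cannot tell shared edges from Pol2-S7p edges in general. The kb outside the 1793 edges had a median of 27.9% repeat-masked bases, and 24.5% outside other H3K27me3 edges. The 280 pairs with both ends in common were a median of 75.9% repeat-masked (33.5% for the autosomes), 78.9% of them overlapped Pol2-S5p, and 23 (8.21%) had a coding gene start within 2 kb. The part of repeats or mappability in shared edges was not tested.

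Between wide regions there were 1694 borders, and under the definition used more of them overlapped than were separated. At 1401 (82.7%, 80.8 to 84.5) the regions overlapped, at 287 there was a gap of up to 5 kb, and at 6 the regions abutted. Gaps were limited to 5 kb while overlaps had no limit, so this share depends on the definition. Overlaps of at most 5 kb numbered 698, and with a gap limit of 20 kb the share that overlapped was 67.9%. The overlap had a median of 5.20 kb (quartiles 2.40 and 11.8 kb), and 165 overlaps were over 20 kb. The regions that met had median widths of 37.0 kb (H3K27me3) and 36.9 kb (Pol2-S7p). Most wide regions had no such border. Of 4340 wide H3K27me3 regions, 26.7% had one on 1 side and 6.15% on both sides, and of 5521 wide Pol2-S7p regions 22.4% and 4.17% did. Borders were present on every autosome, from 3.24 per 10 Mb on chromosome 13 to 11.5 on chromosome 19, and the share that overlapped ran from 71.1% on chromosome 13 to 95.1% on chromosome 1.

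**Figure D2:**
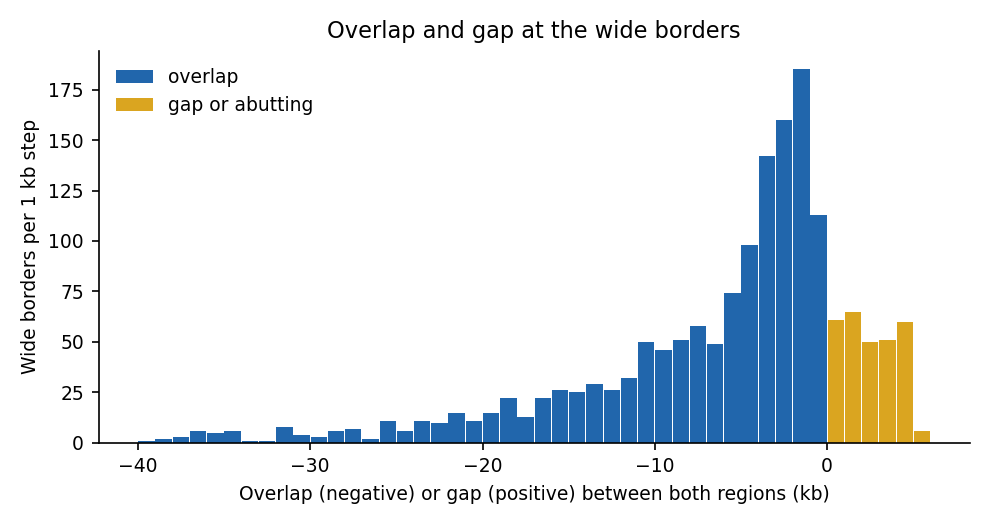
Number of wide borders per 1 kb step against the overlap (negative, blue) or gap (positive or 0, yellow) between the H3K27me3 and the Pol2-S7p region in kb. Gaps were limited to 5 kb, so the last bar holds gaps of exactly 5 kb, and overlaps longer than 40 kb lie outside the axis. The overlaps rise to their highest counts between 1 and 4 kb, above every step on the gap side.

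Some regions were linked by borders into alternating runs. There were 855 pairs, 246 runs of 3 regions, and 1 run of 10. That run, at chr15:79108000-79548799, took up 441 kb with 5 regions of each mark and held the starts of 15 coding genes. They included Sox10, a transcription factor of neural crest and glia, Kcnj4, an inward rectifier potassium channel gene, Polr2f, which encodes a subunit shared by the RNA polymerases, the kinase gene Csnk1e and the RNA helicase gene Ddx17. The longest run in kb, at chr10:79523000-80744999, joined 9 regions over 1222 kb with 74 coding gene starts, among them the splicing regulator Ptbp1, the neutrophil elastase gene Elane and the pacemaker channel gene Hcn2.

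Coding genes often started at the borders, and more of them were transcribed toward the Pol2-S7p side than toward the H3K27me3 side. With each border zone widened by 2 kb on both sides, 916 of 1694 borders (54.1%, 51.7 to 56.5) held the start of a coding gene. At 707 (41.7%) a gene ran into the Pol2-S7p region, at 343 (20.2%) a gene ran into the H3K27me3 region, and at 134 genes left in both directions. Counted by start, 797 of 1217 (65.5%, 62.7 to 68.2) ran into Pol2-S7p. The same lean was present at Pol2-S7p edges in general: in 4 kb windows, 29.0% of the Pol2-S7p edges at borders held a start into Pol2-S7p and 8.32% one the other way, and at wide Pol2-S7p edges more than 5 kb from H3K27me3 the shares were 19.5% and 5.28%. In all, 1215 coding genes started at a wide border, and the background over all 20807 autosomal coding genes is therefore 5.84%. Starts of long noncoding RNA genes were at 250 borders (14.8%), a share with no background here to set it against. Borders with overlap held a coding start more often (59.0%, 56.4 to 61.6) than borders with a gap (30.4%, 25.2 to 36.0), and overlap zones are also longer.

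**Figure D3:**
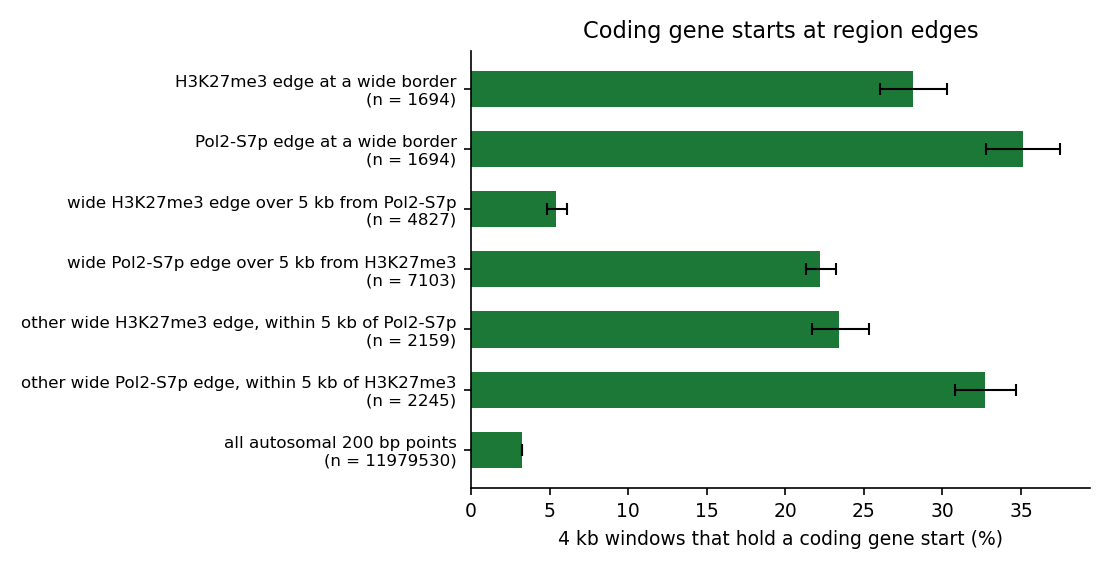
Percentage of 4 kb windows, centred on a region edge, that hold the start of a coding gene; bars start at 0, error bars are exact 95% intervals for counting error, and the lowest bar gives all 200 bp points of the autosomes. Edges at wide borders (28.1% for H3K27me3 and 35.1% for Pol2-S7p) stand above edges of the same mark over 5 kb from the other mark (5.43% and 22.2%). Pol2-S7p lies over many coding starts, so grouping H3K27me3 edges by distance to it by itself lowers the share at far edges.

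Starts at border edges were also compared with starts at other edges in windows of equal length, 4 kb around each edge. A coding start lay in the window of 35.1% (32.8 to 37.5) of the Pol2-S7p edges at wide borders, of 22.2% (21.3 to 23.2) of wide Pol2-S7p edges more than 5 kb from H3K27me3, and of 3.23% of all autosomal points. The other wide Pol2-S7p edges that were near or under H3K27me3 came to 32.7% (30.8 to 34.7), which overlaps the interval of the border edges. For H3K27me3 the contrast was larger, with 28.1% (26.0 to 30.3) at borders, 23.4% (21.7 to 25.3) at other wide edges near Pol2-S7p and 5.43% (4.81 to 6.10) at wide edges far from it. These edges were grouped by distance to Pol2-S7p, which lay over many coding starts (35.2% without H3K27me3 and 22.4% with it). The grouping by itself lowers the share at far edges, so this contrast cannot tell borders from nearness to Pol2-S7p.

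The distances of the edges from the starts describe how close both marks came. In an overlap the order of the edges around a start follows from the direction in which the gene is counted, so only the distances are of interest. For the 796 genes that ran into Pol2-S7p the Pol2-S7p edge was within 1 kb of the start in 51.9% (48.3 to 55.4) and had a median position of -0.747 kb, where negative is upstream. The H3K27me3 edge had a median position of 2.32 kb downstream, with quartiles of 0.871 and 7.92 kb. These genes were covered by Pol2-S7p over a median of 100% of their length and by H3K27me3 over 19.6%. The quartiles for H3K27me3 were 3.57% and 92.5%, so some of these genes lay mostly under H3K27me3 as well. For the 419 genes that ran into H3K27me3, the H3K27me3 edge was upstream at a median of -1.95 kb and the Pol2-S7p edge 5.34 kb downstream, and both marks covered most of the gene, 100% for H3K27me3 and 96.0% for Pol2-S7p at the median. The search within 2 kb of the zone limits how far from the edges a start could lie.

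Lin28a, which encodes an RNA-binding protein that blocks let-7 maturation in pluripotent cells, started at a short overlap. Its start at position 134018841 of chromosome 4 lay in an overlap of 1.60 kb between an H3K27me3 region of 114 kb (chr4:134017400-134130999) and a Pol2-S7p region of 53.4 kb (chr4:133965600-134018999). The Pol2-S7p edge was 158 bp upstream of the start and the H3K27me3 edge 1.44 kb downstream, so H3K27me3 covered 9.30% of the gene and Pol2-S7p 100%. Dnmt3b, the de novo DNA methyltransferase gene, had the Pol2-S7p edge 650 bp upstream and the H3K27me3 edge 1.75 kb downstream. The H3K27me3 region upstream of Dnmt3b was 228 kb wide (chr2:153423200-153651199) and had a border on its other side too, inside Nol4l, where it overlapped another Pol2-S7p region by 22.6 kb. Mapk13, a p38 kinase gene named in the study, had the edges 297 bp upstream and 2.10 kb downstream.

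**Figure D4:**
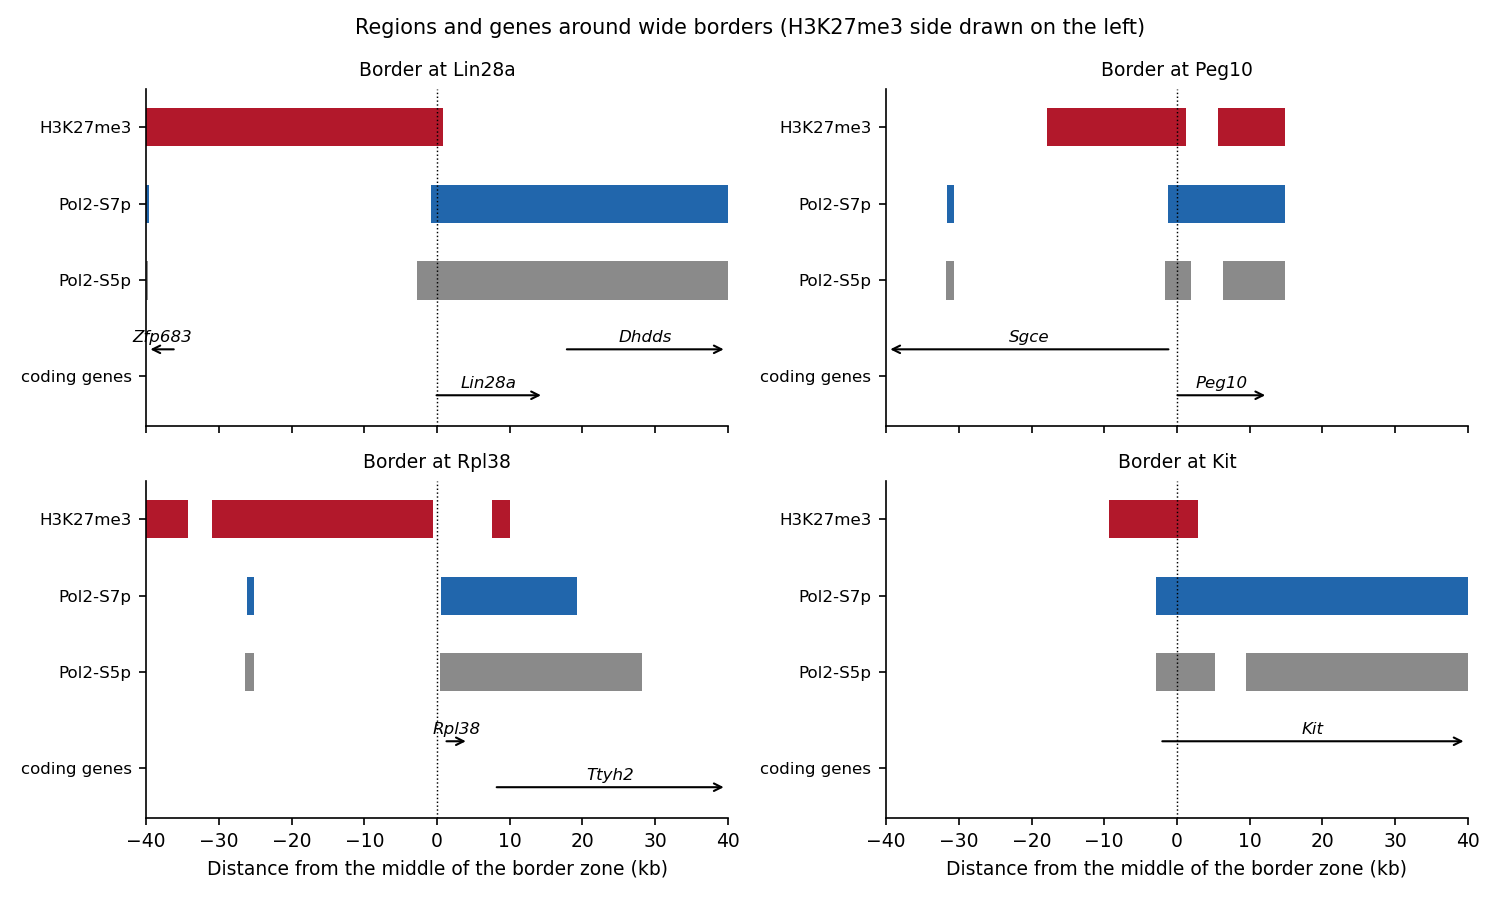
Regions of H3K27me3 (red), Pol2-S7p (blue) and Pol2-S5p (grey) and coding genes (arrows in the direction of transcription, cut at the panel limits) within 40 kb of the middle of 4 wide borders, with H3K27me3 drawn on the left and distance in kb on the x axis. Lin28a, Peg10 and Kit start in an overlap of 1.60, 2.40 and 5.80 kb, and at Rpl38 the marks are 1.20 kb apart with the start on the Pol2-S7p side.

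Peg10 and Sgce, an imprinted pair transcribed from neighbouring starts in opposite directions, lay on both sides of one border. Their starts, 4747306 and 4747207 on chromosome 6, fell in a zone of 2.40 kb in which H3K27me3 (chr6:4730000-4748999) and Pol2-S7p (chr6:4746600-4762599) overlapped. Peg10, a retrotransposon-derived gene of placental development, ran into Pol2-S7p, which covered 100% of it. Sgce, the epsilon-sarcoglycan gene, ran into H3K27me3 and had Pol2-S7p over 2.21% of its length. A further H3K27me3 region lay over the end of Peg10, and H3K27me3 covered 66.7% of Peg10 and 23.6% of Sgce.

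Developmental genes at borders were fewer than the genes of these classes that carried H3K27me3 alone. None of 39 Hox genes, the homeobox genes that pattern the body axis, started at a wide border, and 33 had H3K27me3 without Pol2-S7p at the start. Over all coding genes, 15.5% had H3K27me3 without Pol2-S7p at the start, 35.2% Pol2-S7p without H3K27me3 and 22.4% both. Of 175 developmental transcription factor genes, 8 (4.57%, 1.99 to 8.81) started at a wide border, a share near the 5.84% of all coding genes. At the start, 114 of the 175 had H3K27me3 alone and 54 had both marks. Myog, a regulator of muscle differentiation, and Mixl1, a homeobox gene of mesendoderm, ran into Pol2-S7p, with H3K27me3 over 70.7% and 71.0% of the gene and Pol2-S7p over 100%. Lhx3, a pituitary and motor neuron LIM homeobox gene, faced the other way: its start lay in an overlap of 0.400 kb, and H3K27me3 covered 100% of it and Pol2-S7p 3.59%. Zic2, a zinc finger gene of forebrain development, lay wholly in an overlap of 22.8 kb.

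Signalling genes were at borders in 12 of 125 cases (9.60%, 5.06 to 16.2), an interval that holds the background. At the start, 66 of the 125 had both marks and 42 had H3K27me3 alone. Kit, the receptor of stem cell factor, started 316 bp inside a Pol2-S7p region of 81.8 kb, and H3K27me3 ended 5.48 kb into the gene. Fgf3, a fibroblast growth factor gene, and Fzd9, a Wnt receptor gene, also ran into Pol2-S7p, with H3K27me3 over 90.0% and 100% of the gene. Jag2, a Notch ligand gene, lay wholly in an overlap of 50.2 kb and ran into H3K27me3. The others were Efna3, Dll3, Notch2, Ephb3, Bmp4, Fgfr3, Efnb3 and Fgf17.

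Genes of basic cell functions mostly had Pol2-S7p alone at the start, and a few lay at borders. Of 77 ribosomal protein genes, 68 had Pol2-S7p without H3K27me3 at the start and 9 (11.7%) started at a wide border, 6 of them running toward the H3K27me3 side. At Rpl38 there was a gap of 1.20 kb, and H3K27me3 ended 1.32 kb upstream of the start. Rps10 was also at a gap, of 3.20 kb, and Rpl35 and Rpl13 were at overlaps of 11.0 and 5.00 kb, with H3K27me3 over 100% and 98.3% of the gene. Oxidative phosphorylation genes were at borders in 3 of 71 cases. Sdhc, the cytochrome b560 subunit gene of succinate dehydrogenase, started in an overlap of 0.800 kb, and Uqcrq, of complex III, at a gap of 4.60 kb, while Ndufa13, of complex I, lay in an overlap of 24.2 kb. DNA replication genes were at borders in 3 of 41 cases, all running into Pol2-S7p: Prim1, the primase subunit gene, at a gap of 1.80 kb, and Mcm2 and Gins2, of the replicative helicase, in overlaps of 16.4 and 42.6 kb. None of 31 proteasome genes was at a border.

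Among genes of the pluripotent state, 3 of 41 (7.32%, 1.54 to 19.9) were at borders, Lin28a, Dnmt3b and Dppa3, and 26 had Pol2-S7p alone at the start. Of 32 genes of Polycomb subunits, the makers and readers of the mark itself, Phf19 and Ring1 were at borders and ran into Pol2-S7p, and 14 of the 32 had both marks at the start. Phf19, an accessory subunit of Polycomb repressive complex 2, had H3K27me3 over 9.01% of the gene, and Ring1, an E3 ligase subunit of complex 1, over 99.8%. Imprinted genes were at borders in 2 of 45 cases, Peg10 and Sgce. Markers of other cells were checked as well. None of 26 fibroblast markers was at a border and 12 had H3K27me3 alone at the start. Of 31 neuronal markers, Slc17a7 and Tubb3 were at borders and ran into H3K27me3. Of 23 extraembryonic markers, Apoa1, Tead4 and Eomes were. Genes named in the study were at borders in 2 of 20 cases, Lin28a and Mapk13. The interval of every list began below the background of 5.84%.

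The widest borders were of several kinds. At Sulf2, a heparan sulfate endosulfatase gene, an H3K27me3 region of 289 kb and a Pol2-S7p region of 250 kb overlapped by 62.2 kb (chr2:166148800-166437399 and chr2:165961000-166210999), and Sulf2 ran from the overlap into Pol2-S7p. The longest overlap, 172 kb at chr10:80538800-80711199, held the starts of 12 coding genes in both directions, with Klf16, Btbd2, Mknk2 and Rexo1 running toward H3K27me3 and Csnk1g2, Scamp4 and Izumo4 toward Pol2-S7p. Overlaps of over 100 kb were also found at Chpf, Obsl1 and Inha (130 kb), Zfp516 (126 kb), Slc45a4 and Ptp4a3 (118 kb) and Atp9a (113 kb). Further staggered overlaps held Plekha6 (92.4 kb, inside the gene), Sema4c, Ankrd23 and Ankrd39 (80.4 kb), and a stretch of 86.8 kb between Mvk and Fam222a without a coding start.

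Other borders among the widest had gaps, or overlaps shorter than those above but longer than the median of 5.20 kb. An H3K27me3 region of 201 kb and a Pol2-S7p region of 266 kb overlapped by 11.8 kb, with no coding start in the zone. The nearest coding starts, of Twist2 on one side and Hdac4 on the other, lay far outside the zone, which held the end of Hdac4. The gap inside Prkar1b, a regulatory subunit gene of protein kinase A, was 3.60 kb between regions of 298 kb and 181 kb. A gap of 4.20 kb lay at the start of Zc3h18, which ran into Pol2-S7p. Overlaps of 40.6, 34.0, 24.2, 15.4 and 7.20 kb lay at Iqce, at Ier5l, between Pmvk and Kcnn3, at Hdac3, Fchsd1 and Rell2, and past the end of Atxn10. At the last of these, another coding gene started nearer to the overlap than Atxn10 did.

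Of the 26 pairs that abutted, the one with the widest narrower side lay between Gars, the glycyl-tRNA synthetase gene, and Crhr2, a receptor of corticotropin-releasing hormone, where Pol2-S7p (chr6:55037200-55085999) was followed at once by H3K27me3 (chr6:55086000-55133599). The next lay between the starts of Ass1 and Fubp3, between those of Clip3 and Wdr62, inside Spaca9, and at Kdelr1. Kdelr1, which encodes a receptor that returns proteins to the endoplasmic reticulum, ran into Pol2-S7p. At the other 5 of the 10 widest, Wdr66, Fads2 and Cap1 had their start at the border, and Psmd9, Ap1b1 and Depdc5 their end. Rasl10a and Ywhah were named only as the nearer coding starts at the borders where Ap1b1 and Depdc5 ended.

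Coding genes also ended near borders, most of all a few kb into the Pol2-S7p side. A coding end lay in the widened zone of 706 borders (41.7%, 39.3 to 44.1), and zones differ in length. In 4 kb windows, 14.5% of Pol2-S7p edges at borders held an end, 13.4% of other wide ones near H3K27me3 and 9.47% of far ones. For H3K27me3 edges the shares were 23.7% at borders, 11.4% at other wide ones near Pol2-S7p and 5.14% at far ones. Of all autosomal points, 3.21% had an end in the window. Ends of genes that lay on the Pol2-S7p side numbered 65.8 per Mb in the first kb of the Pol2-S7p side beyond the zone, and 65.9 per Mb between 2 and 3 kb. Between 19 and 20 kb on that side the density was 9.78 per Mb, and in the first kb of the H3K27me3 side it was 11.4 per Mb. Ends of genes on the H3K27me3 side were also dense in the first kb of the Pol2-S7p side, at 51.4 per Mb, with 29.9 per Mb between 2 and 3 kb. At 1142 borders (67.4%) the Pol2-S7p region held at least 1 gene end facing the border. The nearest of these ends was a median of 7.61 kb from the Pol2-S7p edge (quartiles 3.68 and 17.2 kb), and 75.2% of them lay outside the H3K27me3 region. Over all 1142 ends, those inside H3K27me3 counted as negative, the median distance to the H3K27me3 edge was 3.99 kb. At wide Pol2-S7p edges more than 5 kb from H3K27me3, 44.5% of the edges had such an end in their region, a median of 8.73 kb from the edge. An end anywhere in the region counted, and the regions were not matched for width or gene density.

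**Figure D5:**
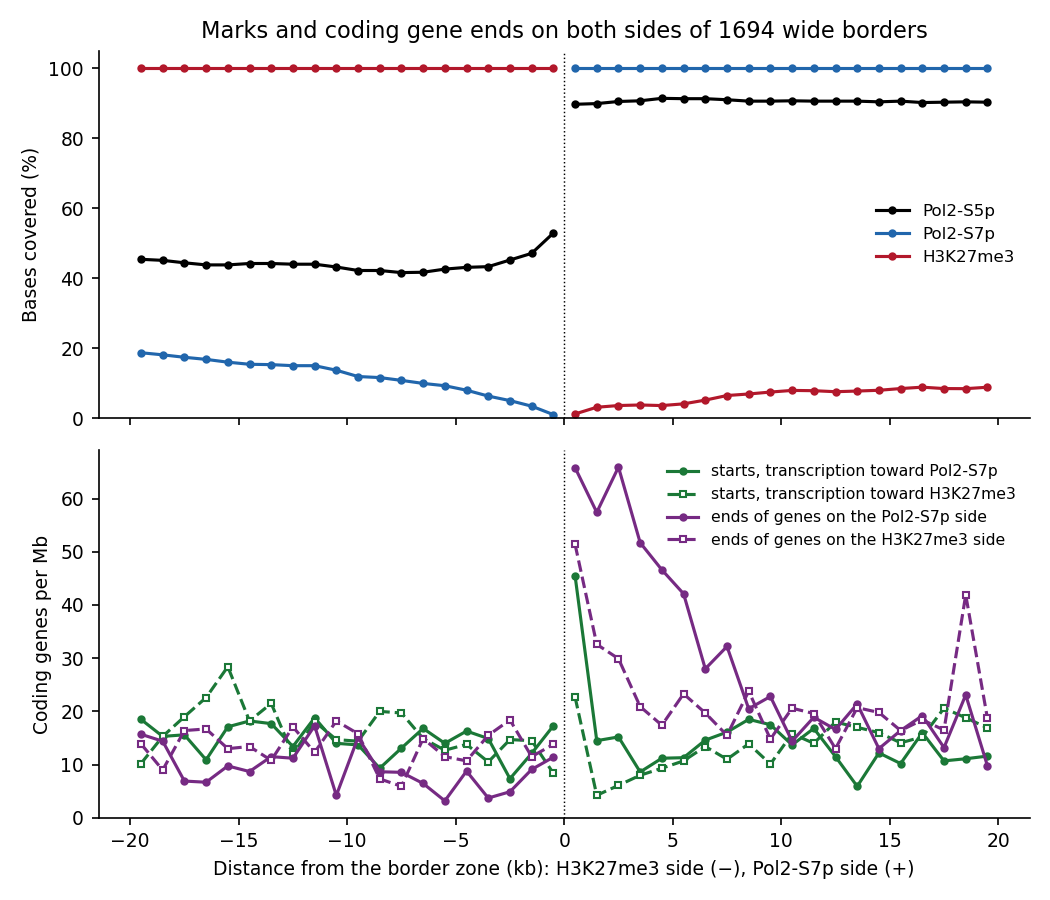
Bases covered by each mark in percent (top) and starts and ends of coding genes per Mb (bottom) in 1 kb windows on both sides of 1694 wide borders, with the zone itself left out at 0 and windows used only while inside the bordering region, so that this region covers 100% on its own side by construction. Ends of genes on the Pol2-S7p side are densest within 5 kb of the zone, and Pol2-S5p covers about 90% on the Pol2-S7p side; the single high value of ends at 18 to 19 kb comes in part from 1 window with 21 ends.

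A smaller number of borders, 179 (10.6%), fell inside a coding gene with no start or end of a gene record in the widened zone. In 135 of them (75.4%, 68.4 to 81.5) the gene began on the H3K27me3 side and ran toward Pol2-S7p, in 41 it began on the Pol2-S7p side, and in 3 genes of both kinds overlapped. At 72 of the 135 (53.3%) another annotated transcript of the gene started in the widened zone. Nol4l, Plekha6 and Spaca9 were of the first kind and Prkar1b of the second. At Pol2-S7p edges taken one by one in 4 kb windows, 74.9% (70.2 to 79.2) of 378 edges at borders inside genes had the gene beginning on the outer side, and 53.8% (51.9 to 55.8) of 2587 wide edges more than 5 kb from H3K27me3. In the same windows, another annotated transcript of the gene started at 93 of 283 such edges at borders (32.9%) and at 333 of 1393 edges elsewhere (23.9%). A further 313 borders (18.5%) had no coding start, end or body in the zone.

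Pol2-S5p, which was not used to define borders, lay over most of them. It overlapped 1540 of 1694 zones (90.9%, 89.4 to 92.2), 98.4% of those with an overlap and 55.3% (49.4 to 61.1) of those with a gap. It covered 94.1% of the bases in overlap zones and 37.5% of those in gap zones, against 13.2% of the autosomes. On the Pol2-S7p side it covered 89.7% of the first kb and 90.3% between 19 and 20 kb. On the H3K27me3 side it covered 52.9% of the first kb and 45.4% between 19 and 20 kb. Overlap zones lie under Pol2-S7p by definition, so their cover by Pol2-S5p compares with the Pol2-S7p side rather than with the autosomes. At the starts themselves, 95.4% of the 1215 genes at borders were under Pol2-S5p and 65.4% of all coding genes. The definition of a border raises the first of these shares, because it selects starts near Pol2-S7p. Both H3K27me3 and Pol2-S7p lay over 82.0% of the starts at borders, a share that the definition of a border raises, and over 22.4% of all coding starts.

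Border sequence was richer in GC and CpG than the autosomes, and so were the flanks of the borders. In 2 kb windows at the middle of the zones the median GC content was 51.2% (41.6% for all 2 kb tiles) and the median ratio of observed to expected CpG 0.255 (0.165 for all tiles). The median GC content was 45.6% at wide Pol2-S7p edges far from H3K27me3 and 46.5% at wide H3K27me3 edges far from Pol2-S7p. The median CpG ratios at these far edges were 0.223 and 0.206. Borders without a coding start had a median CpG ratio of 0.231 and those with one 0.299, and all coding starts had 0.486 at a median GC content of 51.5%. Border windows were a median of 17.3% repeat-masked, against 26.1% of all tiles. The zones themselves differed by kind. Overlap zones had 52.3% GC, a CpG ratio of 0.314 and 19.8% repeat-masked bases. Gap zones had 45.2% GC, a CpG ratio of 0.198 and 36.5% repeat-masked bases. Between 19 and 20 kb from the zone, GC was 49.8% on the H3K27me3 side and 47.9% on the Pol2-S7p side. The CpG ratios there were 0.245 and 0.248, so high GC and CpG were not particular to the borders.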

How the data were processed

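Mouse F123 mESCs were profiled by ChIP-seq with 1 library per mark. The authors aligned single-end reads with Bowtie2 2.3.4.3 to mm10 with strain variants masked, and called enriched regions with the Bayesian change-point finder in its histone mode, default settings, per the labels and the study's methods. The deposited lists give position, width (another value, in bp, on a 200 bp grid) and a score whose unit is not stated in the sources used here. Reads per region are not in these lists, and sequencing depth did not enter the counts.

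Only positions on the 19 autosomes were used, with Pol2-S5p as a further readout. Distances were measured from each edge to the nearest region of the other list, and pairs were classed as nested, staggered, equal, abutting or facing. Wide borders joined regions of at least 10 kb with overlap or a gap of at most 5 kb, and zones were widened by 2 kb for genes (GENCODE M21). With 1 library per mark no test of significance was made. Shares carry exact Clopper-Pearson intervals at 95%. All autosomal 200 bp points, 2 kb tiles and coding genes served as background. Python 3.11.15, NumPy 2.4.6, pandas 2.3.3, SciPy 1.17.1 and Matplotlib 3.10.9 were used, and the functions were tested on simulated regions.

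The members and the 14 gene lists were chosen with earlier results of these data known. Named genes were those at the 15 borders with the widest narrower side, the 8 longest staggered overlaps, the 10 widest abutting pairs, up to 4 members per list nearest the middle of the zone, and genes named in the study. Other list members are named without values. A border that the rule gives is not reported here. The runs of regions and the example sequences and maps were chosen after their values were seen, and 2 of the 6 windows given by the rule for sequences are printed.

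Alternatives changed the score, width, merging, repeat content, overlap, gap limit, zone and the annotated ends.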

Additional observations from a re-analysis of the deposited data

Results flagged for a closer look

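The X and Y chromosomes were left out of all counts above, and both held the same kinds of contact. On X, 272 of 1005 H3K27me3 regions (27.1%, 24.3 to 29.9) overlapped Pol2-S7p, below the 46.6% (45.8 to 47.4) of the autosomes, and 12 wide borders were found. On Y, 320 of 557 H3K27me3 regions (57.5%, 53.2 to 61.6) overlapped Pol2-S7p, and 14 wide borders were found. They are given here because no comparison of the report used them, and no control library sets a level for them. The line is male, so X and Y are in single copy, and the effect of copy number on the called regions was not tested.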

How the results depend on the processing

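No paired analysis was possible because each mark had 1 library and the marks shared no more than 1 replicate number. Of 73 results under alternatives, 53 stayed within 1.5 times of the reported count or within the interval of the median. Dropping the lower-scoring 50% of each list moved all 11: 2530 H3K27me3 and 2681 Pol2-S7p regions overlapped, 2 pairs abutted, 678 were staggered and 2109 nested, the median edge distances were 41200 bp (H3K27me3) and 57800 bp (Pol2-S7p), and 329 wide borders held 216 with a coding start, 158 with one into Pol2-S7p and 194 with a coding end. Regions of at least 1 kb gave 14 abutting pairs and medians of 14800 bp and 19200 bp. Without regions at least 50% repeat-masked, the Pol2-S7p median was 12400 bp. A width minimum of 20 kb gave 1030 wide borders, of which 569 held a coding start, 440 one into Pol2-S7p and 440 an end, and zones that were not widened held an end at 440. These settings use fewer or shorter stretches by construction.

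Over the alternatives of region, gap and width, 67.9% (gap limit of 20 kb) to 91.3% (gap limit of 2 kb) of wide borders overlapped, and starts ran into Pol2-S7p in 58.0% (above the median score) to 65.9%. With regions above the median score, 32.1% of H3K27me3 regions overlapped Pol2-S7p and 25.7% of Pol2-S7p regions overlapped H3K27me3. With repeat-rich regions left out, 111 of the 280 equal pairs and 1026 of the 1793 shared edges were left. The 200 bp grid limits every distance, no value has a replicate, and what a deeper library would call was not tested.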
